A study of Sorghum bicolor with 24 samples.

Results

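ABCB14 (Sobic.007G042600.v3.2) and ABCB15 (Sobic.006G123100.v3.2) are 2 sorghum genes whose deposited descriptions read ABC transporter B family member 14 and 15. They were chosen, out of 35907 genes in one count table and 35842 in the other, and were selected on their counts in the phosphorus experiment, near absent in one arm, so their phosphorus values are given as a description with no test. The rule sets no numeric threshold. Each of the 2 descriptions belongs to 1 gene in the tables, and 25 genes in all are described as ABC transporter B family members, 1 of them a predicted gene listed in the GR table alone.

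Root RNA of Sorghum bicolor was sequenced in 24 libraries, 3 in each of 8 groups. The P table holds roots labelled phosphorus deficiency or mock after 4 and 7 days. The GR table holds roots labelled GR245DS, a synthetic analogue of the strigolactone hormones, or mock after 3 and 6 h. The sources used here do not give cultivar, plant age, growth medium, phosphate supply or the dose of GR245DS, nor whether replicates came from separate plants, so p-values measure the spread between these libraries. Libraries of the P table held 32631226 to 45292506 counts in total, and those of the GR table held 31677623 to 38706195.

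ABC transporters of class B are membrane pumps that use ATP to move small molecules across a membrane, and in plants several of them carry auxin. In Arabidopsis, ABCB1 and ABCB19 export auxin, ABCB14 was described as a malate importer of guard cells, and ABCB14 and ABCB15 have been tied to auxin transport in the stem. The sorghum names rest on similarity to such proteins, and the transported substance of either sorghum protein is not known from these data.

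In the P table, both genes were on in the 6 libraries labelled mock and at or next to 0 in the 6 libraries labelled phosphorus deficiency. At day 4, ABCB14 had 11541, 10637 and 13198 counts in the mock libraries and 0, 0 and 2 in the libraries labelled phosphorus deficiency. At day 7 it had 14850, 11366 and 10662 counts in mock and 0, 0 and 0 under the deficiency label. The groups did not overlap at either day, and the lowest mock library had 10637 counts where the highest library of the other arm had 2.

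ABCB15 had the same pattern at a lower level. Its mock libraries held 1895, 1766 and 2190 counts at day 4 and 2273, 2629 and 2586 at day 7. Under the deficiency label it had 2, 0 and 0 counts at day 4 and 0 in each library at day 7. The single libraries with 2 counts were replicate 3 for ABCB14 and replicate 1 for ABCB15, so no library held counts of both.

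As CPM (counts scaled to the library total, adjusted with TMM factors), ABCB14 stood at 339 ± 18.2 CPM in mock at day 4 and 315 ± 55.8 CPM at day 7 (SD, n = 3). ABCB15 stood at 56.0 ± 2.75 CPM and 64.6 ± 13.1 CPM in the same groups (SD, n = 3). As ratios of mock to the deficiency label at day 4, ABCB14 came to 19904, with a 95% exact counting interval of 5612 to 167410, and ABCB15 to 3067, with an interval of 928 to 27694. At day 7, where all libraries under the deficiency label were at 0, ABCB14 was at least 3586-fold and ABCB15 at least 736-fold higher in mock, against a floor of 3 counts per library. These intervals and floors cover counting error only and treat each count as an independent read, which may not hold for counts as low as 2. These are the values that chose the genes, in a table where 38.6% of 25137 tested genes were called at day 4 and 35.6% at day 7 (edgeR adjusted p below 0.05). In bulk roots, fewer cells that make a transcript and less transcript per cell cannot be told apart.

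The order of names in the columns of the authors' own fold changes was read from these same labelled counts. Their direction therefore follows the library labels by construction and is no separate evidence on them. In the authors' deposited table, the column named phosphorus deficiency against mock gives ABCB14 a log2 fold change of 14.33 at day 4 and 15.83 at day 7. For ABCB15 the authors' deposited table gives 11.73 and 13.55. Among genes called here with edgeR, the authors' values had the sign of mock over the deficiency label for 9023 of 9023 genes at day 4. In the GR columns, which name mock first, they had the sign of GR245DS over mock for 244 of 244 genes at 3 h. By the library labels, the authors' deposited table thus divides the second group in a column's name by the first in both tables, and the positive values of the 2 transporters mean a higher level in mock. SPX domain proteins, which in many plants rise on phosphate shortage and restrain the starvation response, moved with the 2 transporters. Summed over 9 SPX genes, the level was 2647 to 3560 CPM in the mock libraries and 97.0 to 110 CPM under the deficiency label, with 7 of 9 lower and 1 higher at each day (edgeR adjusted p below 0.05), where 18.4% and 18.2% of all genes tested were lower at days 4 and 7 and 20.3% and 17.4% higher. For the 7 lower genes this is opposite to the usual rise. Whether each of the 9, some of them described as membrane proteins, usually rises is not known from these data. Whether labels were exchanged cannot be decided from these files, and every direction here follows the library labels.

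**Figure D1:**
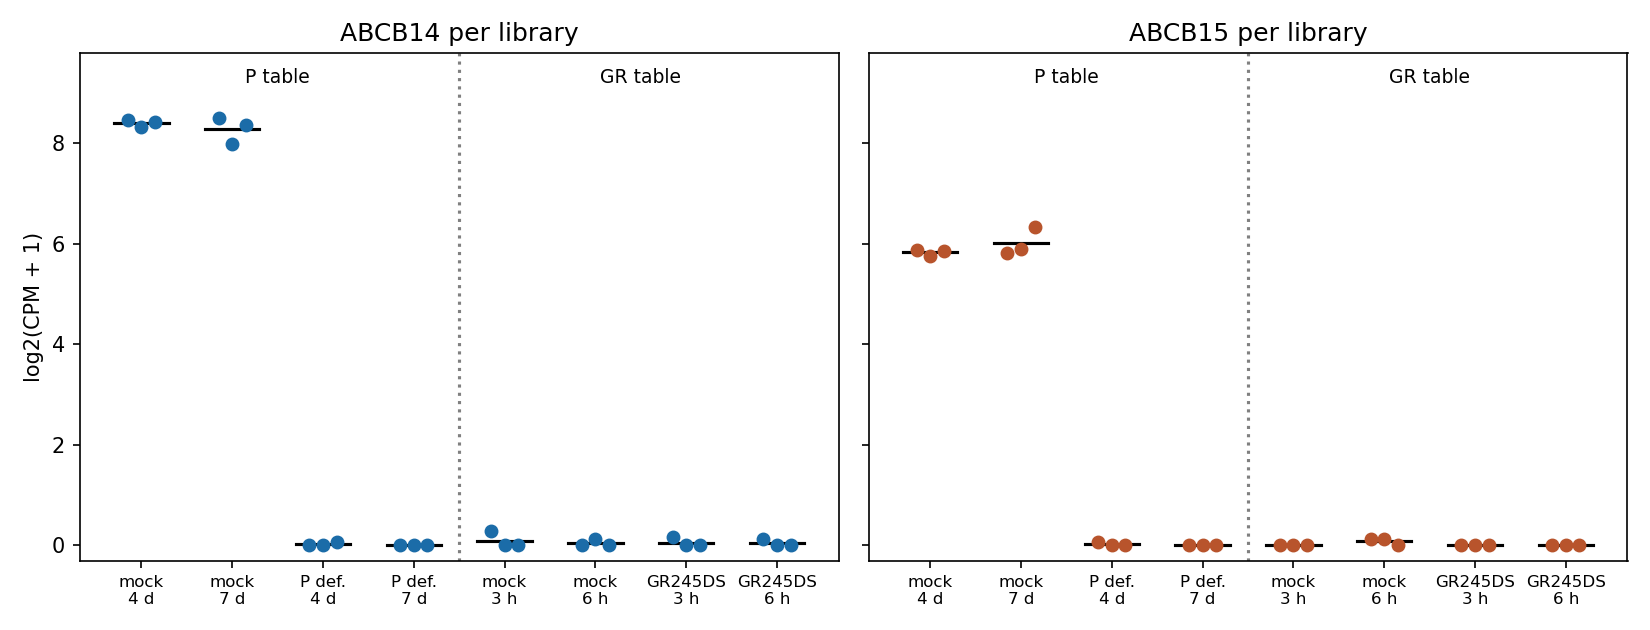
Level of ABCB14 (left, blue) and ABCB15 (right, orange) in each of 24 libraries, as log2(CPM + 1), by group, with group means as bars and a dotted line between the P and GR tables, which were scaled separately. The 6 mock libraries of the P table stand above all others, and the remaining 18 libraries of each gene lie at or near 0.

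The GR table was not used to choose the genes, and there they were near absent in all 4 groups, mock included. ABCB14 had 8, 0 and 0 counts in mock at 3 h, 0, 3 and 0 in mock at 6 h, 4, 0 and 0 with GR245DS at 3 h, and 3, 0 and 0 with GR245DS at 6 h. ABCB15 had 3, 3 and 0 counts in mock at 6 h and 0 in the other 9 libraries of the table. Each group of this table held at least 1 library at 0 for each gene, so the groups overlapped.

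Over all 18 libraries outside the mock arm of the P table, ABCB14 was at 0 in 13, with 20 counts in all. ABCB15 was at 0 in 15 of these libraries, with 8 counts in all. The highest value, 8 counts of ABCB14 in mock replicate 1 at 3 h, equalled 0.222 CPM with a 95% exact interval of 0.0959 to 0.438 CPM. A library at 0 allows up to 0.0682 to 0.0991 CPM, depending on its depth, which is the level of 3 counts. Counts this low may not be single reads, as a count of 1 occurred in 1852 cells of the GR table and a count of 2 in 7504; how the counts were made is not stated.

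Neither gene passed the filter on low counts in the GR table, so no response to GR245DS was tested for them. Without the filter, the edgeR adjusted p of ABCB14 was 1.0 at 3 h and at 6 h, from 8 counts in mock and 4 with GR245DS at 3 h and 3 counts in each at 6 h, and ABCB15 at 3 h had no count to test. In the authors' deposited table neither gene has a fold change or an adjusted p for the GR245DS comparisons. With GR245DS, ABCB14 had at most 4 counts in a library and ABCB15 had 0, at a depth near that of the P table, so no rise to the mock levels of the P table took place. A fall from the few counts in mock could not have been seen. Among the other genes, 1.01% of 24814 tested were called at 3 h and 0.484% at 6 h.

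Ordered by mean level, ABCB14 was highest in mock at day 4 and mock at day 7, whose libraries overlapped, followed at under 0.1 CPM by mock at 3 h, GR245DS at 3 h, GR245DS at 6 h, mock at 6 h, the deficiency label at day 4 and the deficiency label at day 7. For ABCB15 the order was mock at day 7, mock at day 4, mock at 6 h and the deficiency label at day 4, with the remaining 4 groups at 0. Neighbours in either order did not differ beyond their spread, apart from the step between the mock groups of the P table and all the rest. That step also separates mock of the P table from mock of the GR table, which were sampled at other times and scaled separately.

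Other values differed between the same libraries. A list of 27 root marker genes covered Casparian strip proteins, SCARECROW, SHORT-ROOT and resorcinol O-methyltransferases. The last, the only sorgoleone synthesis enzyme found by its description, made up most of the list. The 27 genes summed to 655 to 1132 CPM in mock and 320 to 438 CPM under the deficiency label, while the GR table had 60.9 to 261 CPM. A pair of resorcinol O-methyltransferase genes (Sobic.010G234500 and Sobic.010G234400) made up most of the sum in mock, and without them, a choice made after the values were seen, the other 25 markers summed to 153 to 260 CPM in mock and 136 to 198 CPM under the deficiency label, which overlap. Of 18 root markers tested, 1 was higher and 7 lower at day 4, and 1 and 6 at day 7 (edgeR adjusted p below 0.05). Of all genes tested, 20.3% were higher and 18.4% lower at day 4, and 17.4% and 18.2% at day 7. Of the 27 root markers 4 were at 0 in all libraries of the P table and 3 in all libraries of the GR table. A list of 40 green tissue markers summed to 21.2 to 45.6 CPM in mock, 66.2 to 81.0 CPM under the deficiency label and 386 to 1425 CPM in the GR table. Of the green tissue markers 8 were at 0 throughout the P table and 6 throughout the GR table. The summed SPX level in the GR table was 157 to 265 CPM, nearer to that under the deficiency label than to that of mock in the P table. Much of the GR sum came from SPX membrane protein genes that were lower in the P table. Sobic.010G019000 had group means of 105 to 118 CPM in the GR table and 28.7 to 34.3 CPM in the P table. For Sobic.006G185500 the group means were 15.6 to 31.7 CPM and 1.44 to 8.62 CPM. The part of these differences in the levels of ABCB14 and ABCB15 was not tested.

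Where the genes were on, no difference between the days passed the test. The choice did not contrast the days, but it drew on these same mock libraries, through which alone both genes passed the filter on low counts. Between mock at day 7 and mock at day 4, ABCB14 had a log2 fold change of -0.10 ± 0.17 (SE, n = 3, edgeR adjusted p = 0.908). ABCB15 had 0.21 ± 0.19 (SE, n = 3, edgeR adjusted p = 0.793). In this comparison 1.34% of 25137 genes were called. Per library, ABCB14 was at 354, 318 and 343 CPM at day 4 and at 363, 254 and 328 CPM at day 7. ABCB15 was at 58.1, 52.9 and 57.0 CPM at day 4 and at 55.5, 58.7 and 79.6 CPM at day 7. The spread was wider at day 7 for both, with ABCB14 lowest in replicate 2 and ABCB15 highest in replicate 3.

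Per length, on the authors' FPKM scale, the ABCB14 transcript was the more abundant of the pair. ABCB14 reached 59.0 ± 2.44 FPKM at day 4 and 52.2 ± 8.11 FPKM at day 7, and ABCB15 12.2 ± 0.498 and 13.4 ± 2.43 FPKM (SD, n = 3, mock). The FPKM ratio of ABCB14 to ABCB15 was 4.86, 4.81 and 4.81 in the day 4 mock libraries and 5.22, 3.45 and 3.29 in those of day 7. The ratio was nearly constant at day 4 and varied at day 7. In the mock libraries, 93.6% to 96.1% of the listed genes had a lower FPKM than ABCB14, and 75.9% to 82.1% had a lower FPKM than ABCB15.

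Among the 24 genes of the family that carry a Sobic identifier, ABCB14 held 12.99% to 18.01% of the summed FPKM in the mock libraries and ABCB15 3.20% to 4.90%. ABCB14 ranked second there behind ABCB21 (Sobic.003G139300), except in replicate 3 of day 7, where it ranked first. ABCB21, whose Arabidopsis namesake carries auxin, was at 66.2 ± 6.56 FPKM in mock and 58.0 ± 2.17 FPKM under the deficiency label at day 4, and at 59.7 ± 7.77 and 71.2 ± 4.45 FPKM at day 7 (SD, n = 3). Its change did not pass the test at day 4 (edgeR adjusted p = 0.0845) or at day 7 (0.199). The summed FPKM of the family was 330 to 366 in mock and 258 to 291 under the deficiency label. Without ABCB14 and ABCB15 the mock sum was 260 to 298, which overlaps that of the other arm.

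**Figure D2:**
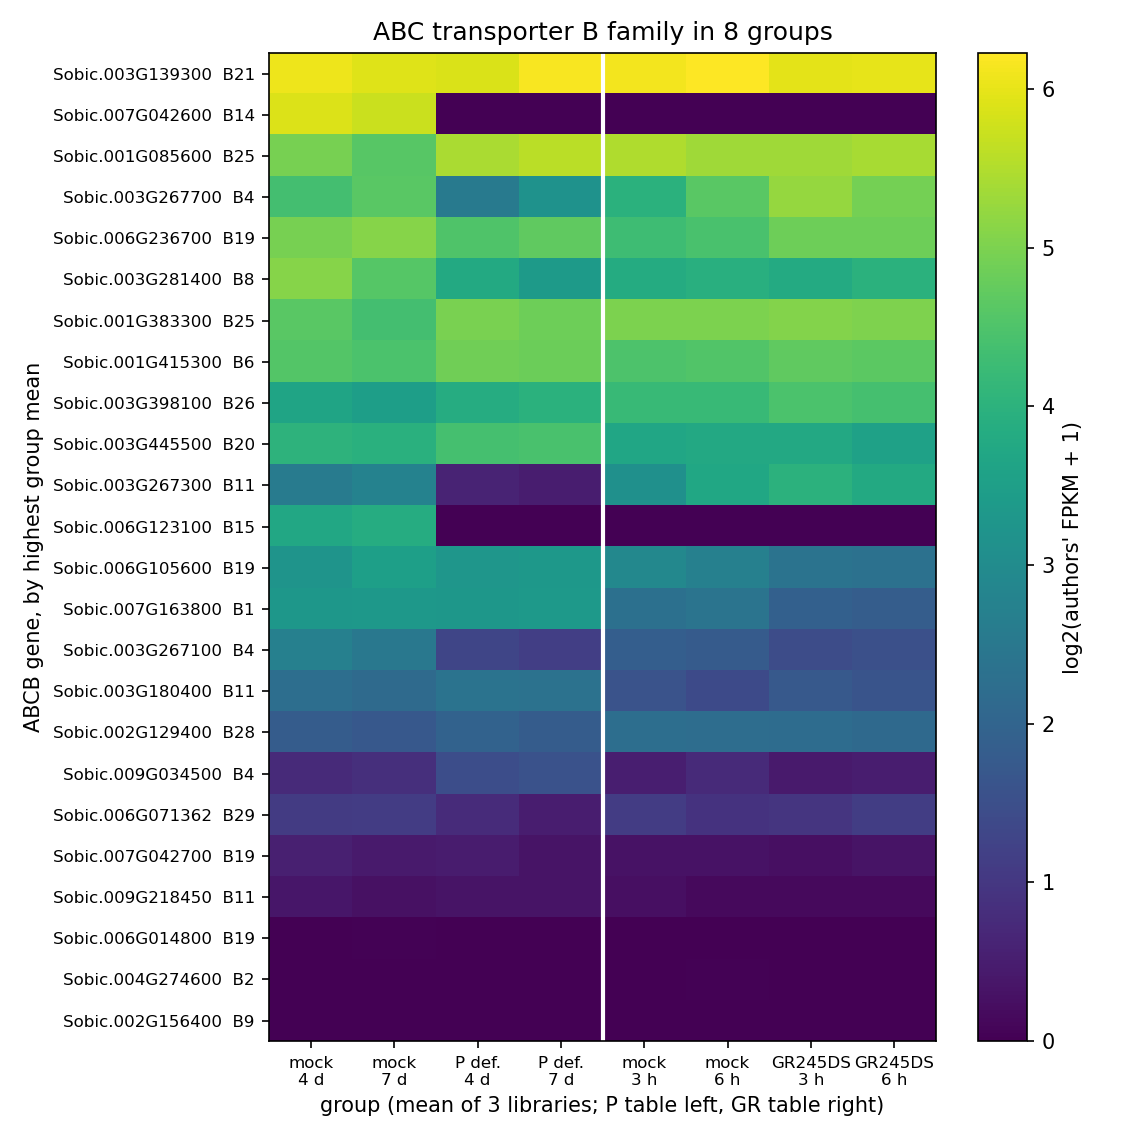
Mean of the authors' FPKM over 3 libraries, as log2(FPKM + 1), for the 24 ABCB genes with a Sobic identifier (rows, by highest group mean) in the 8 groups (columns, P table left of the white line). ABCB14 (second row) and ABCB15 are bright in the mock groups of the P table and dark in the other 6 groups, while ABCB21 in the top row is high in all 8.

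Among the other 22 family genes of the P table, those past the test were split between both directions, in shares near those of all genes at day 4. Of the 19 that could be tested, 4 were higher and 4 lower under the deficiency label at day 4, beside 20.3% higher and 18.4% lower of all genes tested (edgeR adjusted p below 0.05). At day 7, 5 were higher and 5 lower, beside 17.4% and 18.2% of all genes. The median log2 fold change of the 19 was -0.08 at day 4 and 0.02 at day 7, against 0.02 and -0.02 over all genes tested. The 3 genes not tested, described as ABCB2 (Sobic.004G274600), ABCB9 (Sobic.002G156400) and an ABCB19 (Sobic.006G014800), had at most 13 counts in any library of either table, so silence in the GR table was shared with other family members that were also near silent in mock of the P table.

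The family genes that fell most included 3 with neighbouring identifiers. An ABCB11 (Sobic.003G267300) had 22.4, 20.2 and 23.3 CPM in mock and 2.38, 2.41 and 1.91 CPM under the deficiency label at day 4. It fell by 3.29 ± 0.20 on the log2 scale at day 4 (SE, n = 3, edgeR adjusted p = 7.99e-08) and, at day 7, had a log2 fold change of -3.90 ± 0.21 (2.0e-08). This was the largest change among the 19, and the groups did not overlap, but the gene kept 268 counts under the deficiency label at day 4.

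An ABCB4 (Sobic.003G267700), named after an Arabidopsis auxin transporter of the root, fell from 88.9 ± 10.2 to 21.0 ± 3.46 CPM at day 4 and from 114 ± 13.8 to 36.4 ± 3.51 CPM at day 7 (SD, n = 3, edgeR adjusted p = 3.41e-07 and 2.17e-06). A second ABCB4 (Sobic.003G267100) fell by 1.98 ± 0.24 at day 4 and by 1.93 ± 0.24 at day 7 on the log2 scale (SE, n = 3, edgeR adjusted p = 3.40e-05 and 4.20e-05). The putative ABCB8 (Sobic.003G281400) fell by 1.43 ± 0.19 and 1.34 ± 0.19 (SE, n = 3, edgeR adjusted p = 8.22e-05 and 0.000139). ABCB29 (Sobic.006G071362), described as a chloroplast protein, fell at day 7 from 2.43 to 0.869 CPM (edgeR adjusted p = 0.00285). At day 4 its value of -0.72 ± 0.31 missed the threshold (0.0823). Whether reads were shared between these similar genes is not known from the files.

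The rises were smaller. Another ABCB4 (Sobic.009G034500) rose from 3.45 ± 0.207 to 8.68 ± 0.607 CPM at day 4 and from 4.18 ± 2.19 to 10.2 ± 0.672 CPM at day 7 (SD, n = 3, edgeR adjusted p = 0.00432 and 0.00518). In Arabidopsis, ABCB25 is a transporter of the mitochondrial membrane that serves iron-sulfur cluster assembly. Of the sorghum genes described as ABCB25, Sobic.001G383300 alone is described as mitochondrial. Whether Sobic.001G085600 has this role is not known from these data. The ABCB25 gene Sobic.001G085600 rose by 0.44 ± 0.12 at day 4 and 0.95 ± 0.13 at day 7 on the log2 scale, and Sobic.001G383300 rose by 0.29 ± 0.10 and 0.44 ± 0.10 (SE, n = 3, edgeR adjusted p = 0.0131, 6.92e-05, 0.0344 and 0.00389). ABCB20 (Sobic.003G445500) rose by 0.34 ± 0.11 and 0.45 ± 0.11 (adjusted p = 0.0283 and 0.00709), and the chloroplast ABCB26 (Sobic.003G398100) at day 7 alone passed the test (0.47 ± 0.17, adjusted p = 0.0422). At day 4 the calls of both ABCB25 genes and of ABCB20 were lost in 3, 12 and 6 alternatives, with adjusted p up to 0.0888, 0.201 and 0.130, and the count of higher genes fell to 1 without mock replicate 3 or without replicate 1 of the deficiency label and to 2 without either replicate 2.

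**Figure D3:**
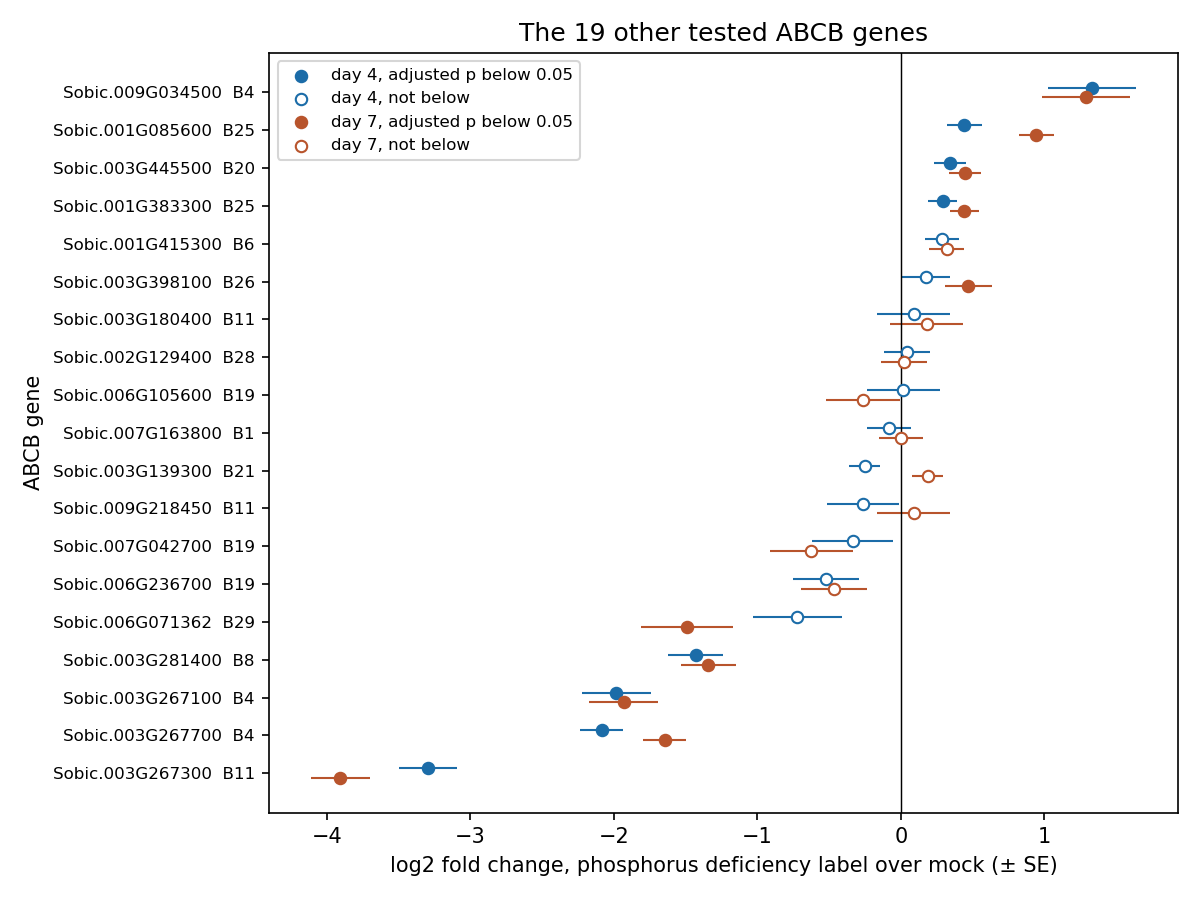
Log2 fold change of the deficiency label over mock, with its SE, for the 19 tested ABCB genes other than ABCB14 and ABCB15, at day 4 (blue) and day 7 (orange); filled points have an edgeR adjusted p below 0.05. The ABCB11 at the bottom, at -3.29 and -3.90, changed most, and the values of the others lie between -2.08 and 1.33.

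No family gene was called in the GR table in the main fit, which had no replicate block. Of 20 tested genes, 0 were called at 3 h and 0 at 6 h with edgeR and 0 with DESeq2, while 2 and 1 had an unadjusted p below 0.05. Of all genes tested, 1.01% were called at 3 h and 0.484% at 6 h with edgeR. A count of 0 among 20 genes is near these shares. An ABCB19 (Sobic.006G236700), named after an auxin exporter, had 89.6, 97.1 and 62.3 CPM in mock and 158, 177 and 89.8 CPM with GR245DS at 3 h, which missed the threshold (0.77 ± 0.28 on the log2 scale, SE, n = 3, adjusted p = 0.460 with edgeR). With the replicate number as a block it was called, at 0.74 ± 0.13 (adjusted p = 0.0114), and each GR245DS library was higher than the mock library of its own number. The ABCB11 and the first ABCB4 described above varied between replicates of a group. Across the groups mock 3 h, mock 6 h, GR245DS 3 h and GR245DS 6 h, the ABCB11 was at 78.2, 129, 174 and 89.1 CPM in replicate 1, against 10.7, 10.6, 16.6 and 14.4 CPM in replicate 2 and 5.62, 14.2, 15.9 and 69.1 CPM in replicate 3. The ABCB4 Sobic.003G267700 was at 160, 269, 366 and 235 CPM in replicate 1 of these groups, above replicates 2 and 3 of the same group in each case. Both genes were thus detected in each library of the GR table, where ABCB14 and ABCB15 were near 0. The lowest library had 5.62 CPM of the ABCB11 and 11.2 CPM of this ABCB4.

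To place the pattern among all genes, a gene was called on-off at a day when it had at least 10 CPM in each mock library and at most 3 counts in all under the deficiency label. By this rule 13 of 12673 genes on in mock were on-off at day 4 (0.103%), and 19 of 12437 at day 7 (0.153%). The reverse pattern, on under the deficiency label and off in mock, had 1 gene at day 4 (0.00825%) and 0 at day 7. By CPM, which takes no account of gene length, ABCB14 ranked first in mock among the on-off genes at both days and ABCB15 the fifth. With at most 10 counts allowed under the deficiency label, ABCB14 had rank 2 and ABCB15 rank 7 at day 4. At day 7 these ranks were 1 and 6. All these ranks rest on the values that chose the genes.

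Taking both days together, a choice made after the values were seen, 8 genes had at least 10 CPM in each of the 6 mock libraries and at most 3 counts over the 6 libraries of the other arm. They included ABCB14, ABCB15, the phosphate transporter PHT1-11 (Sobic.003G243400), whose rice namesake serves mycorrhizal phosphate uptake, and a gene named 11-beta-hydroxysteroid dehydrogenase 1A (Sobic.008G187200). PHT1-11 was at 41.0 to 142 CPM in the mock libraries and had 2 counts in the other arm. The rest were Sobic.009G244000, Sobic.010G019200, Sobic.004G022950 and a predicted gene, which have no informative name. Of the 8 genes, 7 are listed in the GR table, and each of these had at most 8 counts in each of the 12 GR libraries. The near silence of ABCB14 and ABCB15 in the GR table was thus shared by the other 5 of these genes listed there. Genes on-off at 1 day alone were looked up there only where they were among those most like the transporters. Of these, Sobic.009G244100, Sobic.002G336100 and Sobic.003G195700 had at most 6, 8 and 6 counts in a GR library.

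**Figure D4:**
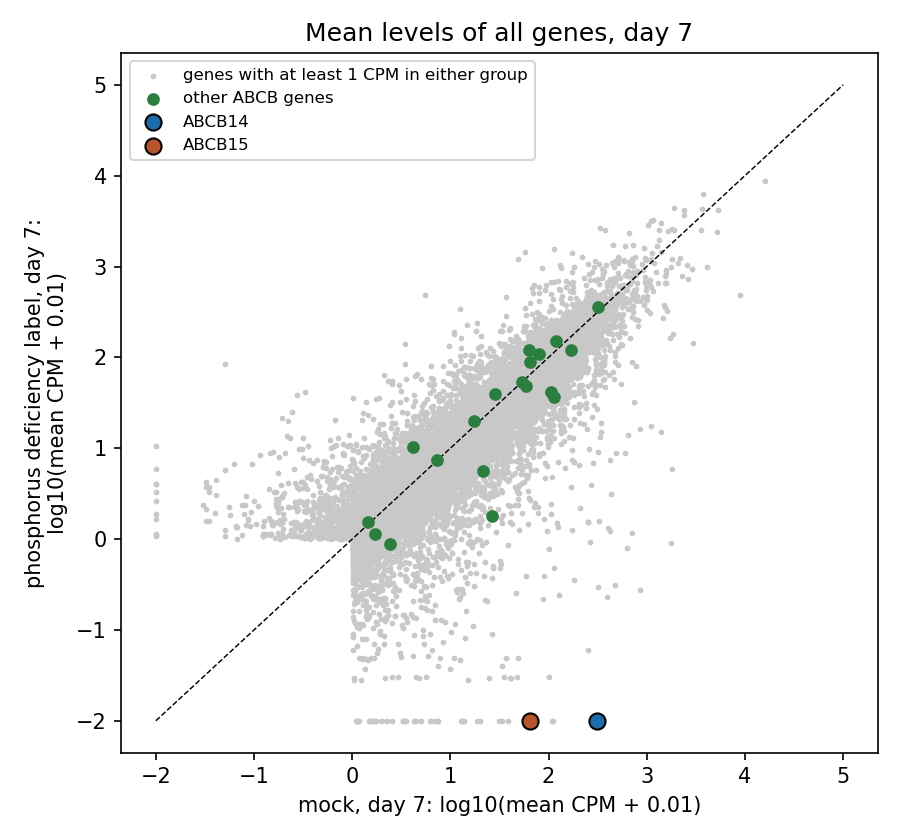
Mean level at day 7 of each gene with at least 1 CPM in either group, as log10(mean CPM + 0.01), in mock (x axis) and under the deficiency label (y axis); the dashed line marks equal levels. ABCB14 and ABCB15 lie on the lower edge, where the deficiency label has 0 counts, and the other ABCB genes (green) lie nearer the line.

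The genes most like each transporter over the 12 P libraries were found by Pearson's r of log2(CPM + 1) among 21187 genes. Since the libraries fall into 2 levels, r mostly measures that step, and 155 genes had r above 0.99 with each transporter. ABCB14 and ABCB15 had r = 0.99848 with each other. The closest described gene to ABCB14 was the 11-beta-hydroxysteroid dehydrogenase 1A (r = 0.99968), at 28.7 to 36.3 CPM in mock and 3 counts in all in the other arm. Next came the probable inactive purple acid phosphatase PAP1 (Sobic.008G140100), Sobic.009G244100, the RNA polymerase subunit 8B (Sobic.001G013500), the purple acid phosphatase PAP2 (Sobic.008G113000) and Sobic.002G198700. Purple acid phosphatases are enzymes that free phosphate bound in organic molecules.

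The closest gene to ABCB15 was a cytochrome P450 716B1 (Sobic.002G336100, r = 0.99969), at 34.5 to 48.4 CPM in mock and 6 counts in all under the deficiency label. The purple acid phosphatase PAP15 (Sobic.007G091100), the 11-beta-hydroxysteroid dehydrogenase 1A, Sobic.002G004600, the RNA polymerase subunit 8B and the serine carboxypeptidase II-2 (Sobic.003G195700) followed. Not all of these genes were off in the GR table. The dehydrogenase had 0 counts in all 12 GR libraries, while PAP2 had a median of 32.4 CPM and the RNA polymerase subunit 8B of 33.0 CPM there. Likeness within the GR table was not computed, since both transporters had a mean below 1 CPM.

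The genes next to the transporters did not go to 0 under the deficiency label with them. In the RefSeq gene table of assembly NCBIv3, the next protein-coding gene on one side of ABCB14 is an ABCB19 (Sobic.007G042700). It was at 2.0 ± 0.132 CPM in mock and 1.59 ± 0.284 CPM under the deficiency label at day 4, and at 1.71 ± 0.339 and 1.11 ± 0.343 CPM at day 7 (SD, n = 3, edgeR adjusted p = 0.368 and 0.111). On the other side, Sobic.007G042400 was at 57.5 CPM in mock and 52.0 CPM under the deficiency label at day 4 (edgeR adjusted p = 0.263). Per length, the ABCB19 was at 0.460 ± 0.0161 FPKM in mock at day 4, where ABCB14 was at 59.0 ± 2.44 FPKM (SD, n = 3). Of this pair of neighbours from one family, ABCB14 alone had the step between the arms. Further out, the transmembrane protein 120 homolog Sobic.007G042300 fell by 0.37 ± 0.13 at day 4 and by 0.68 ± 0.13 at day 7 on the log2 scale (SE, n = 3, edgeR adjusted p = 0.0342 and 0.00116), and Sobic.007G042800 had 0 counts in the P table.

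Beside ABCB15, JINGUBANG (Sobic.006G123000) rose at day 4 from 15.3 ± 0.387 to 29.9 ± 2.73 CPM (SD, n = 3, edgeR adjusted p = 6.87e-05). At day 7 its 20.1 and 22.2 CPM missed the threshold (0.404). The acyltransferase on the other side (Sobic.006G123200) had a mean of at most 1.10 CPM in any group of the P table, and fell at day 7 to 0.283 CPM (edgeR adjusted p = 0.00404). One gene further, the methionine sulfoxide reductase A2-1 (Sobic.006G123300), which repairs oxidised methionine, fell from 133 ± 5.61 to 38.3 ± 3.34 CPM at day 4 and from 107 ± 8.14 to 20.5 ± 4.16 CPM at day 7 (SD, n = 3, edgeR adjusted p = 6.83e-07 and 5.71e-08).

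Carriers of auxin and of malate, the substances named for the Arabidopsis proteins, are described by their counts beside the shares of all genes tested, 20.3% higher and 18.4% lower at day 4 and 17.4% and 18.2% at day 7. Of 20 tested auxin carriers, 3 were higher and 6 lower under the deficiency label at day 4, and 4 and 4 at day 7 (15% and 30%, then 20% and 20%), with medians of -0.38 and -0.24 on the log2 scale. The auxin efflux carrier PIN9 (Sobic.003G327500) was at 38.6, 51.4 and 47.8 CPM in mock and at 0.931, 1.43 and 1.17 CPM under the deficiency label at day 4. It fell by 5.27 ± 0.27 on the log2 scale (SE, n = 3, edgeR adjusted p = 1.75e-08) and by 4.30 ± 0.25 at day 7 (4.47e-08). PILS7 (Sobic.002G108800), of a family that holds auxin in the endoplasmic reticulum, rose from 0.590 to 29.3 CPM at day 4 and from 0.923 to 13.9 CPM at day 7 (edgeR adjusted p = 1.04e-07 and 1.08e-06). With GR245DS, 0 of 19 tested auxin carriers were called at either time with edgeR, 1 at each time with DESeq2, and 1 and 2 had an unadjusted p below 0.05. The shares called with edgeR among all genes tested were 1.01% at 3 h and 0.484% at 6 h.

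Of 12 tested malate and dicarboxylate carriers, 4 were higher and 5 lower at day 4, and 3 and 4 at day 7 (33.3% and 41.7%, then 25% and 33.3%, beside 20.3% and 18.4%, then 17.4% and 18.2%, of all genes), with medians of -0.05 and -0.25. The malate channel ALMT10 (Sobic.004G284700) fell from 36.5 ± 6.91 to 9.51 ± 2.07 CPM at day 4 (SD, n = 3, edgeR adjusted p = 1.33e-05), and its log2 fold change at day 7 was -1.16 ± 0.20 (SE, edgeR adjusted p = 0.000685). The tonoplast dicarboxylate transporter (Sobic.002G245400), which moves malate into the vacuole, rose from 6.0 ± 1.0 to 32.1 ± 5.5 CPM at day 4 and from 2.99 ± 1.73 to 12.5 ± 1.70 CPM at day 7 (SD, n = 3, edgeR adjusted p = 4.44e-05 and 0.000192). It was the 1 gene called among 13 tested with GR245DS at 3 h, from 37.7 ± 10.7 to 99.4 ± 20.5 CPM (SD, n = 3, edgeR adjusted p = 0.0184), a call lost in 6 alternatives with adjusted p up to 0.0957. The share called at 3 h among all genes tested was 1.01%.

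Among ABC transporters of the other classes, 16 of 83 tested were higher and 24 lower under the deficiency label at day 4, and 15 and 17 at day 7. These were 19.3% and 28.9% at day 4 and 18.1% and 20.5% at day 7, beside 20.3%, 18.4%, 17.4% and 18.2% of all genes. The smallest adjusted p belonged to ABCG38 (Sobic.003G281500) and ABCG41 (Sobic.008G033800), which kept 842 and 404 counts under the deficiency label at day 4. With GR245DS, 4 of 86 were higher at 3 h and 2 at 6 h, beside 0.995% and 0.48% of all genes, and 0 were lower, beside 0.0121% and 0.00403%. ABCC8 (Sobic.010G169000) rose from 62.5 ± 18.4 to 423 ± 86.6 CPM at 3 h and from 74.7 ± 10.1 to 306 ± 33.3 CPM at 6 h (SD, n = 3, edgeR adjusted p = 0.000695 and 0.00354). ABCC2 (Sobic.006G219300), whose Arabidopsis namesake loads conjugates into the vacuole, rose from 552 ± 173 to 2027 ± 369 CPM at 3 h and from 630 ± 60.7 to 1715 ± 57.1 CPM at 6 h (SD, n = 3, edgeR adjusted p = 0.00374 and 0.0249), with the call lost in 1 alternative at 3 h and 7 at 6 h (adjusted p up to 0.0676 and 0.126). The remaining genes called at 3 h were ABCC14 (Sobic.003G160200) and ABCG53 (Sobic.002G174000), named after their values were seen.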

How the data were processed

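Raw counts and FPKM per gene and library, with fold changes and adjusted p-values per comparison, were deposited by the authors in 2 tables, per the file headers. Per the submitters' processing notes, DESeq2 1.22.1, featureCounts, HISAT2 and fastp were used, in roles that are not stated; the sources used here give neither genome build nor strandedness. Each of the 24 libraries was matched to its sample by column name, and 0 per-sample columns stayed unmatched.

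The counts of a table's 12 libraries were fitted together, 1 mean per group, with edgeR 4.0.16 in R 4.3.3 (robust quasi-likelihood test, TMM, filterByExpr), leaving 25137 and 24814 genes, with Benjamini-Hochberg adjustment and a threshold of 0.05. The fit was tested on simulated data. The authors' FPKM served to compare levels between genes. Alternatives were DESeq2 1.42.0, RLE or total-count scaling, no filter, at least 30 reads in 3 libraries, the groups compared alone, a replicate block, and leaving out each library or the third replicates of the GR table. Same-numbered GR libraries deviated together (r = 0.219 to 0.681), while those of the P table did not (r = -0.171 to 0.0995). No sample label states that the numbers pair the samples, and the main fit used no block.

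Members and lists (by words in the descriptions) were chosen with earlier results of these data known. Named were up to 4 other ABCB genes per direction and treatment comparison with the smallest adjusted p, up to 2 genes of each other list, and the 6 described genes most like each transporter; neighbours, on-off genes and further ABCB genes were named after their values were seen. Of 34129 Sobic genes, 25322 carry a RefSeq symbol and 25207 of these were found in the RefSeq table.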

Additional observations from a re-analysis of the deposited data

How the results depend on the processing

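The mock levels of ABCB14 and ABCB15 moved by less than 1 SD with RLE or total-count scaling, and neither was called between mock at day 7 and day 4 under any alternative run. Leaving out 1 library at a time, their log2 fold changes ranged from -0.248 to -0.000364 and from 0.0290 to 0.274. At day 4 under the deficiency label, 2 other family genes instead of 4 were higher with only the groups compared, and 1 to 4 when leaving out 1 library. The counts of lower genes at day 4 and of both directions at day 7 stayed within 1.5 times. For GR245DS at 3 h, 1 family gene, the ABCB19 Sobic.006G236700, was higher instead of 0 with the replicate block and also 1 without the third replicates (log2 fold change 0.84 ± 0.15, adjusted p = 0.0360). The block moved no other count of family genes by over 1.5 times. On-off genes at day 4 numbered 21 instead of 13 with at most 10 reads, and 5 with at least 50 CPM; at day 7 they numbered 5 instead of 19 with at least 50 CPM and 25 with at most 10 reads. Of 37 results for named genes, 31 kept their call under each alternative run, 6 lost it under some, and 0 reversed. The cause of these changes was not tested. Both transporters had too few counts to test in the GR table, whose depth was near that of the P table. The common dispersion was 0.136 in the GR table and 0.0408 in the P table.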
